A study of Sus scrofa with 6 samples.

Results

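The regions described here were open in the somites of pig embryos at embryonic days (E) 18 and 21 and had no called peak in the myotomes at E28. They were selected on the peak calls alone: peaks from 6 single-cell ATAC-seq libraries were joined wherever they shared 1 bp or more, and a merged region was taken when all 4 libraries of E18 and E21 had a peak in it and neither E28 library did. This held for 26957 of 294825 merged regions (9.14%), or 22.6% of the 119313 regions with a peak in all 4 somite libraries, which are called somite regions below. Another 78533 somite regions had a peak in both E28 libraries and 13823 had a peak in 1 of them. The lack of an E28 peak is therefore the definition of these regions and not a result, and no test was applied to it.

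ZZ stands for embryos of Tibetan pigs and DZ for those of DurocxTibetan pigs, with 1 library per stage and breed and 5 embryos of 1 sow pooled in each. E18 and E21 tissue was labelled somite and E28 tissue myotome, so stage and dissected tissue cannot be told apart at E28, and sow and stage cannot be told apart anywhere. Each library gave a value for its pool only. With terms for stage and breed, p-values rest on how far the stage change differed between the breeds, with variance shared over regions. In stage fits without a breed term they rest on the spread between the libraries of a stage. Counts were Tn5 cut sites inside peaks, and kept barcodes held totals of 89816504 to 133037579 counts per library. Both E28 libraries had lower totals than any somite library, at 89816504 (ZZ) and 98654857 (DZ) against 106665140 or more. They also had fewer called peaks, 131975 (ZZ) and 137769 (DZ) against 171898 to 217138 in the somite libraries. The part of depth and peak number in the lack of E28 peaks was not tested.

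Somites are blocks of paraxial mesoderm that flank the neural tube and give rise to the dermomyotome, the sclerotome and, from the dermomyotome, the myotome in which skeletal muscle first forms. Open chromatin away from promoters often marks enhancers, whose activity is more restricted to a cell type and stage than that of promoters. A dissected somite can bring neural tube, epithelium, vessels and lateral mesoderm with it.

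The sequences below show what the most accessible and the most changed of these regions look like. Each is the central 300 bases of the stretch shared by the 4 somite peaks, read 5′ to 3′ on the plus strand of Sscrofa11.1. Capitals mark matches, on either strand, to ACAANGG (bound by SOX factors), TAATTA (homeodomain factors), TGACAG (MEIS and TGIF factors), ATGCAAAT (the octamer of POU factors), CAGATG (an E-box of basic helix-loop-helix factors), CAGCTG (another such E-box) and AGATAA (bound by GATA factors). CLEC18C, MYCN and LOC106506612 name the 3 regions with the highest mean level. LOC110262021 and AKAP6 name the regions with the largest rise and fall between E18 and E21 among those of similar covered length. The other 4 lie nearest to genes of the tissue and pathway lists.
CLEC18C region, chr6:13266870-13267169: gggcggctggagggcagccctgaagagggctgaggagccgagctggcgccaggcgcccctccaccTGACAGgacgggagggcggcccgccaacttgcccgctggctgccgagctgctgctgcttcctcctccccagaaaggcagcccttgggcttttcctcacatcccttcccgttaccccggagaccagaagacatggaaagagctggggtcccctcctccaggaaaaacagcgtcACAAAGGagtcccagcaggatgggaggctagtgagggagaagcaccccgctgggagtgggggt
MYCN region, chr3:121360684-121360983: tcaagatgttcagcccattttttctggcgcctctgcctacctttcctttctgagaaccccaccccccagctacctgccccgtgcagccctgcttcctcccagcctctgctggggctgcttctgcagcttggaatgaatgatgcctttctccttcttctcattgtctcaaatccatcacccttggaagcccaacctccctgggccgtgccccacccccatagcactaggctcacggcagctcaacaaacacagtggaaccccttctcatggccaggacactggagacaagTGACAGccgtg
LOC106506612 region, chr17:20202377-20202676: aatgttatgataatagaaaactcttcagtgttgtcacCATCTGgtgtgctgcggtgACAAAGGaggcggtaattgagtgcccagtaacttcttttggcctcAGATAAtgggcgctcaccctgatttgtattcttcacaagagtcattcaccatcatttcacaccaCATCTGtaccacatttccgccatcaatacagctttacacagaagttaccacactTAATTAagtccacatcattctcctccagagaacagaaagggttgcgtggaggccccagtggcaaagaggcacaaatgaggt
LOC110262021 region, chr8:134274414-134274713: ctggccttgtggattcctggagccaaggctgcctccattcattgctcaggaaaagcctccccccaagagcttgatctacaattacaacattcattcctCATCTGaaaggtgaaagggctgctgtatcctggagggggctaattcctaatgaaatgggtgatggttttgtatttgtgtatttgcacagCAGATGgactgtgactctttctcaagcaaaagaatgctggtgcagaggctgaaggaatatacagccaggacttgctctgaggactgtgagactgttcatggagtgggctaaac
AKAP6 region, chr7:67188802-67189101: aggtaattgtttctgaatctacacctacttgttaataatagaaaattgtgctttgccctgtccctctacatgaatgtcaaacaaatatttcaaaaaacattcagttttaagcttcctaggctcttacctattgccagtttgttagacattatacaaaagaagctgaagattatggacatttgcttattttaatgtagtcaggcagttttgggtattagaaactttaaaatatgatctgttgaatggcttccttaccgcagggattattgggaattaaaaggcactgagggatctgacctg
WNT7A region, chr13:70632695-70632994: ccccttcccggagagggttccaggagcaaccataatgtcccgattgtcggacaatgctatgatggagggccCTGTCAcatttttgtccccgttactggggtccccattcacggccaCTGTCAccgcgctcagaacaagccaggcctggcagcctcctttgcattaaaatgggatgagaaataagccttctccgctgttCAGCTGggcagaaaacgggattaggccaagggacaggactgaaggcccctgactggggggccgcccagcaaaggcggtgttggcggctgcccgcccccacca
GATA6 region, chr6:107576182-107576481: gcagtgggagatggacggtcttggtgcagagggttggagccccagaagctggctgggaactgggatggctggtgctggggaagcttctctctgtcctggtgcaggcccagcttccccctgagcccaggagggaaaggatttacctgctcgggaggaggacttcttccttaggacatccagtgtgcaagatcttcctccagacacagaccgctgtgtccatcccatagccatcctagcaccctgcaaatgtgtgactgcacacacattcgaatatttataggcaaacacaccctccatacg
FLT1 region, chr11:5777129-5777428: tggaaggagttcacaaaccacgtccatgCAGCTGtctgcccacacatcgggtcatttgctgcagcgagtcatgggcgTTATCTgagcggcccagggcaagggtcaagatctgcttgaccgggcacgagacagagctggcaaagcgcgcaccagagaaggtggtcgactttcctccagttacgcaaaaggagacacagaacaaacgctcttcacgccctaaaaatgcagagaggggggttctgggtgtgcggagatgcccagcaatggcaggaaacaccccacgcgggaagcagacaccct
GSX1 region, chr11:5155627-5155926: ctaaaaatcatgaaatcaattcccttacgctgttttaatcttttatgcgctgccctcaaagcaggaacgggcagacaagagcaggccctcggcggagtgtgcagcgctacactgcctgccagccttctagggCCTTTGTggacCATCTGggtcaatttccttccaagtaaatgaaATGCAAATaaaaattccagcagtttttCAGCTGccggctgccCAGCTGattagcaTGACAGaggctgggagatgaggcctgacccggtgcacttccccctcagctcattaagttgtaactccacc
These windows differ in letters as well as in level. The GSX1 window held the octamer, a SOX match, a TGACAG match and 3 E-boxes, whereas the GATA6 and AKAP6 windows held no match to any of the 7 motifs. The AKAP6 window was the poorest in G and C of the 9 at 35.0% and the CLEC18C window the richest at 66.3%. A match is a run of letters and not a bound site.

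Somite regions without an E28 peak were mostly intronic (47.4%) or distal (39.0%), with 9.59% overlapping an exon, 2.32% overlapping a promoter (the 2 kb before a start site), and the rest lying in UTRs. Regions with a peak in all 6 libraries were intronic in 35.4%, distal in 31.3%, exonic in 26.0% and in promoters in 5.60%. The regions without an E28 peak were shorter, with a median width of 732 bp against 1366 bp, and a longer region meets an exon more easily. With the centre base alone, the intronic and distal share was 92.5% against 78.9%. The median distance to the nearest start site was 37135 bp against 18830 bp, and 1096 regions (4.07%) lay within 2 kb of a start site against 16404 (20.9%). This was not particular to regions lacking both E28 peaks. Somite regions with a peak in only 1 E28 library had a median distance of 33972 bp, with 4.98% within 2 kb and 84.7% intronic or distal, against 86.4% here.

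**Figure D1:**
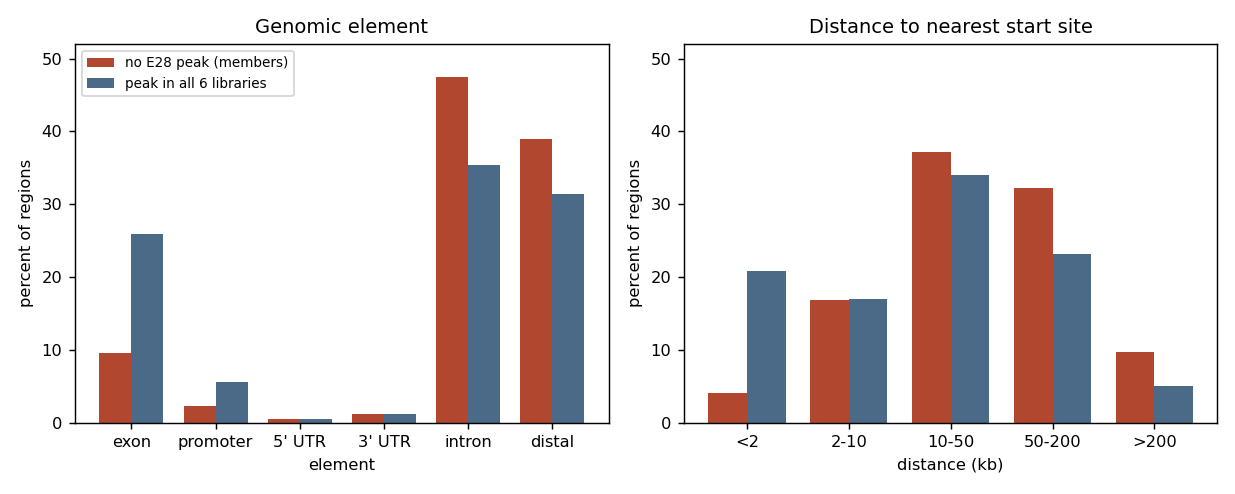
Percent of regions by genomic element (left) and by distance to the nearest start site in kb (right), for the 26957 somite regions without an E28 peak (red) and the 78533 regions with a peak in all 6 libraries (blue). Within 2 kb of a start site the bars stand at 4.07% and 20.9%, and beyond 200 kb at 9.67% and 5.06%.

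The central 300 bases had a median GC content of 49.3% against 52.3% and a median ratio of observed to expected CpG of 0.254 against 0.346. Repeats took a mean of 11.5% of these bases against 11.6%. Such regions occurred on every chromosome. They made up 17.1% of the somite regions of chromosome 12, the lowest share, and 25.6% of those of chromosome 13, the highest. The nearest E28 peak was a median of 4015 bp away, with 2862 regions within 1 kb of one and 2460 regions (9.13%) more than 20 kb from any.

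At the edge of the rule, 41 of these regions had an E28 peak less than 100 bp away. Their median level was 1.79 CPM (counts per 1000000 kept counts of a library) at E18 and 1.02 CPM at E21, as a mean of both breeds. Just outside it, 1911 somite regions had E28 peaks that covered less than 100 bp, with medians of 1.96 CPM at E18, 1.47 CPM at E21 and 0.0456 CPM at E28. In the E28 libraries, 5% of all peaks held no more than 24 counts (ZZ) or 30 counts (DZ), that is 0.267 and 0.304 CPM. Reads outside called peaks were not analysed here, so a region without an E28 peak is listed at 0 there and may still hold some cut sites.

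These were weak regions in the somites too. The median level per region was 1.74 CPM in E18 ZZ, 1.84 in E18 DZ, 1.21 in E21 ZZ and 0.994 in E21 DZ. Both E18 medians were above both E21 medians. The regions with a peak in all 6 libraries had medians of 4.62, 4.63, 5.03 and 4.81 CPM in the same order of libraries, with both E21 medians above both E18 medians. Somite regions with a peak in 1 E28 library were nearly as weak and had the same order, with 2.01, 1.96, 1.69 and 1.59 CPM. At least 1 count fell in a median of 1.09%, 1.22%, 0.808% and 0.621% of the kept cells for the largest peak of each region without an E28 peak. Together these regions took 6.33% (ZZ) and 6.86% (DZ) of all counts in the E18 libraries, and 4.25% and 3.47% in those of E21.

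The called peaks were also shorter at E21. The median covered length was 636 bp in E18 ZZ, 587 bp in E18 DZ, 443 bp in E21 ZZ and 429 bp in E21 DZ, against 1126, 1014, 1017 and 1054 bp for regions with a peak in all 6 libraries and 699, 616, 543 and 569 bp for those with a peak in 1 E28 library. Per kilobase covered, the regions without an E28 peak held 3.04, 3.62, 3.02 and 2.60 CPM, so that E18 ZZ and E21 ZZ lay close together on this scale and E18 DZ and E21 DZ lay further apart. In 683 of the regions, no base was shared by peaks of all 4 somite libraries.

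**Figure D2:**
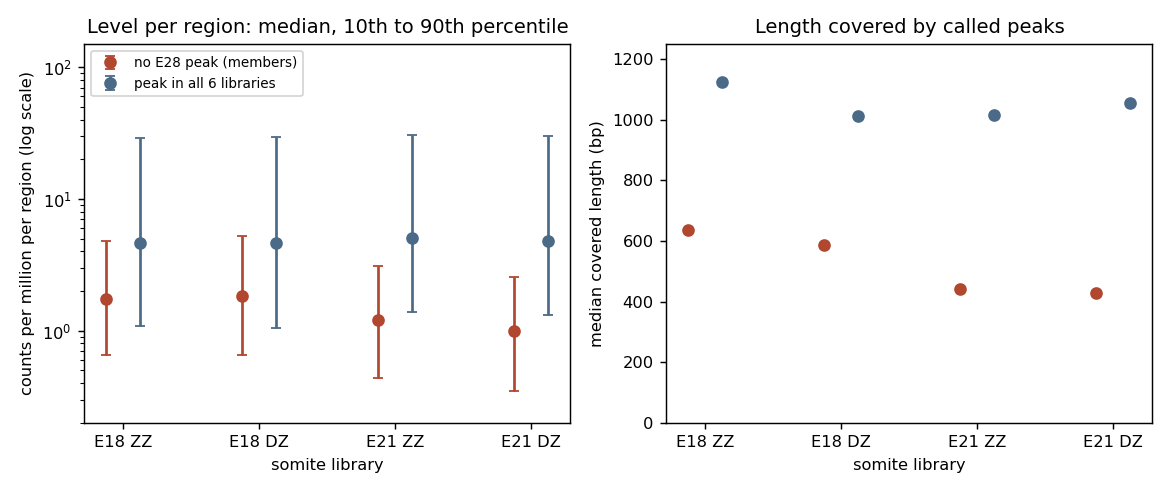
Left, CPM per region in the 4 somite libraries on a log scale, as the median (point) with the 10th to 90th percentile over regions (bar). Right, median length covered by called peaks in bp. Red points are somite regions without an E28 peak and blue points regions with a peak in all 6 libraries, and the red medians stand at 1.74, 1.84, 1.21 and 0.994 CPM.

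The rule did not use the order of E18 and E21, so this change could be tested, with edgeR's quasi-likelihood test over all 119291 somite regions that passed the filter on low counts and Benjamini-Hochberg adjusted p under 0.05. Of these, 13.5% were called, 6.91% as higher and 6.6% as lower at E21. Of the 26943 tested regions without an E28 peak, 3944 (14.6%) were called, of which 266 rose and 3678 fell. The share called was thus close to the background, while the direction was not: 13.7% fell and 0.987% rose. Their median log2 change was -0.68, against -0.02 over all regions tested.

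The covered length moved with this change. With the log of the covered length as an offset, 1102 of these regions rose and 3656 fell, so that 23.2% of the called ones rose against 6.74% without it, and their median log2 change was -0.09 against 0.13 over all regions. The offset moved all somite regions the same way: 24.3% of them were then called, with 20964 rises and 8049 falls against 8241 and 7878 without it, beside 17.7% of the regions without an E28 peak. Among the 6777 regions whose covered lengths in the 4 libraries lay within 1.5 times of each other, 219 rose and 1140 fell, with a median of -0.22 against -0.02. The share called was 20.1%, beside 20.4% of all 61216 somite regions under this limit, of which 5935 rose and 6551 fell. The number called, but not the direction, changed with single libraries. With 3 libraries the breed term had to be dropped, and the lone library of a stage is assumed to vary like the pair of the other stage. Such fits called 0 without E18 DZ (6657 at an unadjusted p under 0.05, and 9293 in the fit of all libraries), 1162 without E18 ZZ and 7018 without E21 ZZ, against 4486 without the breed term alone. The median log2 change stayed at -0.58, -0.67 and -0.75 in these fits. In each of them the share called was close to that over all somite regions in the same fit. DESeq2 called 6041 with all libraries (22.4%, with 608 rises and 5433 falls), beside 20.3% of all somite regions. By direction alone, 60.0% of the regions were lower at E21 in both breeds and 15.1% were higher in both, against 32.4% and 42.4% of regions with a peak in all 6 libraries.

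**Figure D3:**
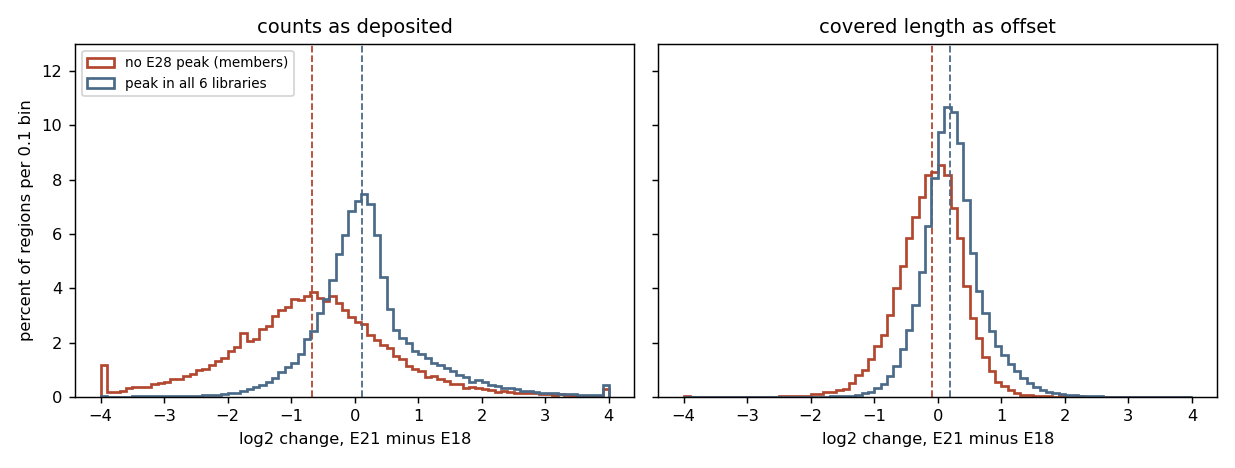
Distribution of the log2 change from E18 to E21 (E21 minus E18) in percent of regions per 0.1 bin, from counts as deposited (left) and with the log covered length as an offset (right), values beyond 4 in size drawn at 4. Red, 26943 somite regions without an E28 peak. Blue, 78530 regions with a peak in all 6 libraries. Dashed lines are medians, at -0.68 (red) and 0.11 (blue) on the left and -0.09 (red) and 0.20 (blue) on the right.

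Between breeds, DZ against ZZ, edgeR called 0% of all somite regions and 0 of the regions without an E28 peak. At an unadjusted edgeR p under 0.05 there were 815 of 26943, beside 3397 of all 119291 somite regions tested. DESeq2 called 7, beside 23 of all somite regions. With 2 libraries per breed from different stages, this says that no difference was detectable here.

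The 8 regions with the highest mean CPM were, apart from CLEC18C, distal or intronic. The region at CLEC18C, a gene for a C-type lectin, lay at chr6:13264624-13269116 over an exon. It had 29.5 CPM in E18 ZZ, 32.6 in E18 DZ, 20.9 in E21 ZZ and 14.8 in E21 DZ. The log2 change was -0.76 ± 0.16 (SE, edgeR adjusted p = 0.0358). The distal region nearest to MYCN, a transcription factor gene active in proliferating progenitors, lay 189 kb downstream of its start at chr3:121358789-121362482. It had 26.7, 40.2, 13.1 and 9.80 CPM in the same order of libraries. It fell by 1.47 ± 0.23 on the log2 scale (edgeR adjusted p = 0.0204), and by 1.10 with covered length as an offset. The region nearest to LOC106506612, at chr17:20200867-20204306, was intronic and lay 127 kb upstream of that gene's nearest start. It had 21.5, 27.2, 14.5 and 11.6 CPM and fell by 0.84 ± 0.18 (edgeR adjusted p = 0.0351). All E18 values of these 3 regions lay above all E21 values. The nearest protein-coding start to the region of LOC106506612 was that of JAG1, a Notch ligand gene. The region lay far from that start, at -572.868 kb (negative for upstream).

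Another 2 of the 8 lost most of their level by E21. The region in an intron of THSD4, a gene for a thrombospondin-domain protein of the extracellular matrix, had 26.0 CPM in E18 ZZ, 25.9 in E18 DZ, 8.99 in E21 ZZ and 4.38 in E21 DZ. The distal region nearest to LOC106506229 had 29.2, 24.3, 4.61 and 4.70 CPM. The stages did not overlap at either, with log2 changes of -1.99 ± 0.24 (edgeR adjusted p = 0.0159) and -2.46 ± 0.19 (edgeR adjusted p = 0.0148).

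The remaining 3 of the 8 did not order by stage. The region nearest to SLC30A10, a manganese exporter gene, had 17.0, 28.6, 17.5 and 11.0 CPM. The intronic region of URM1, whose product modifies transfer RNA, had 13.8, 21.4, 17.3 and 11.8 CPM. The distal region nearest to GLRA1, a glycine receptor subunit gene of spinal neurons, had 12.4, 21.7, 15.2 and 12.0 CPM. In each, E18 DZ was the highest library and the E18 and E21 values overlapped, with edgeR adjusted p from 0.214 to 0.628.

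Among the regions called in the fit of all somite regions, those with covered lengths within 1.5 times and the same direction in both breeds numbered 161, of which 12 rose and 149 fell. They came from 6778 regions without an E28 peak and with such covered lengths. The same count over all somite regions is not given, so this balance is not compared with a background. The larger counts above for such covered lengths came from a separate fit of those regions alone. The distal region nearest to LOC110262021 rose the most, from 1.44 and 1.76 CPM at E18 (ZZ and DZ) to 6.20 and 7.69 CPM at E21, a log2 change of 2.18 ± 0.27 (edgeR adjusted p = 0.0161). Its level was highest in the fibroblast and mesenchyme-like cells described below, whose share of cells was larger at E21. Their part in this rise was not tested. The promoter region of PRR5L, whose product binds the mTORC2 kinase complex, was at 0.894 and 1.56 CPM at E18 and at 4.55 and 3.45 CPM at E21. The intronic region of LOC110255885 was at 1.43 and 2.20 CPM and then at 6.13 and 4.97 CPM. SORCS1 encodes a neuronal sorting receptor, and its intronic region was at 1.75 and 2.43 CPM and then at 7.02 and 5.54 CPM. For SLC6A11, a GABA transporter gene, the intronic region was at 1.10 and 1.71 CPM and then at 3.90 and 4.02 CPM. In all 5 the lowest E21 library was above the highest E18 library, and log2 changes ran from 1.59 to 2.18. With covered length as an offset they ran from 1.17 to 1.68.

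On the falling side, the intronic region of AKAP6, a gene for a kinase anchor of striated muscle and neurons, went from 8.12 and 7.25 CPM at E18 to 1.94 and 1.13 CPM at E21, a log2 change of -2.31 ± 0.29 (edgeR adjusted p = 0.0160). The SCP2D1 region went from 7.59 and 6.61 CPM to 1.72 and 1.35 CPM. ALG2 encodes a mannosyltransferase of N-glycosylation, and the distal region nearest to it went from 18.7 and 20.3 CPM to 5.66 and 3.41 CPM. The exonic region of ATP6V1B1, a proton pump subunit gene, went from 10.1 and 9.86 CPM to 3.38 and 1.73 CPM. THSD4, described above, was the other of these 5. No E21 library reached an E18 library in any of them. Of the 21 named regions called with all libraries, 21 were no longer called without E18 DZ, where no somite region was, and 13 without E18 ZZ, while all kept their direction. The log2 change at AKAP6, for example, was -2.37 and -2.18 in these fits.

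The regions were spread over many genes. The nearest start sites belonged to 10393 genes, of which 4720 had 1 such region and 268 had 10 or more. Leaving out genes with LOC symbols, the 6 with the most had many somite regions of any kind. NRXN3, a presynaptic adhesion gene, had 28 such regions of its 57 somite regions, DLGAP2, of the postsynaptic density, 28 of 62, and TENM3, a teneurin, 28 of 86. CDH4, a cadherin gene, had 27 of 93, KAZN, of cell junctions, 25 of 93, and RORA, a nuclear receptor gene, 24 of 65. Of the 28 regions of NRXN3, 27 were intronic and 1 was distal, and they spread from 36.4 to 369 kb from the nearest start. Most of these regions were weak, with a median of the mean CPM between 1.11 (DLGAP2) and 2.19 (RORA). Called changes between E18 and E21 were falls, in 3 (NRXN3), 1 (DLGAP2), 5 (TENM3), 0 (CDH4), 5 (KAZN) and 4 (RORA) of them, beside 13.7% of all regions without an E28 peak.

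Grouped by lists of genes of a tissue or pathway, the share of somite regions without an E28 peak ran from 9.23% to 34.1%, beside 22.6% over all somite regions. Genes of neural progenitors and neural tube patterning had the highest share, with 84 of 246 regions, and 19 genes held them. SOX21, a progenitor transcription factor gene, had 9 of 17, SOX2, which keeps neural progenitors undifferentiated, 8 of 20, PAX6 7 of 16, OLIG3 7 of 13 and SHH, the ventral signal, 6 of 15. Genes of neurons had 79 of 256 (30.9%), among them LHX5, a homeodomain gene of spinal interneurons, with 13 of 20, LHX1 with 9 of 18, ELAVL4, an RNA-binding protein gene, with 8 of 14, and EBF1 with 20 of 51. The windows of LHX5 and ELAVL4 were raised in the neural-like cells described below, and those of LHX1 and EBF1 were not. Neural crest genes had 29 of 108 (26.9%), with 5 of 8 at EDNRB, an endothelin receptor gene.

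Lists of other tissues lay on either side of the share over all somite regions. Endoderm and notochord genes had 37 of 120 (30.8%), 10 of them at GATA6. Intermediate mesoderm genes had 48 of 168 (28.6%), with 12 at OSR1, 9 at LHX1 and 5 at WT1, the gene of the nephric and coelomic lining. Genes of endothelium had 35 such regions (24.5%), with 14 at FLT1. Lateral plate, heart and limb genes had 46 of 208 (22.1%), fibroblast and mesenchyme genes 39 of 186 (21.0%), blood genes 14 of 64 (21.9%) and surface epithelium genes 16 of 86 (18.6%). Genes of pluripotency and the early embryo had 43 of 170 (25.3%).

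Lists closer to the somite were near or below the share over all regions. Somite and dermomyotome genes had 50 of 253 (19.8%), with 7 of 17 at TBX18, 6 of 27 at PAX7 and 5 of 17 at PAX3, both genes of muscle progenitors. Sclerotome and cartilage genes had 43 of 196 (21.9%), of which 22 were at SOX5. The windows of SOX5, PAX3 and PAX7 were raised in the neural-like cells described below, and those of PAX3 and PAX7 in muscle-like cells too. Muscle genes had 16 of 118 (13.6%), with 7 of 34 at MEF2C. Tail bud and presomitic mesoderm genes had 10 of 63 (15.9%) and HOX genes 6 of 65 (9.23%). Signalling genes had 148 of 762 for WNT and FGF (19.4%), 16 of them at WNT5A, and 136 of 578 for BMP, NODAL, Notch, Hedgehog and retinoic acid (23.5%), 15 each at GLI2 and RARB.

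**Figure D4:**
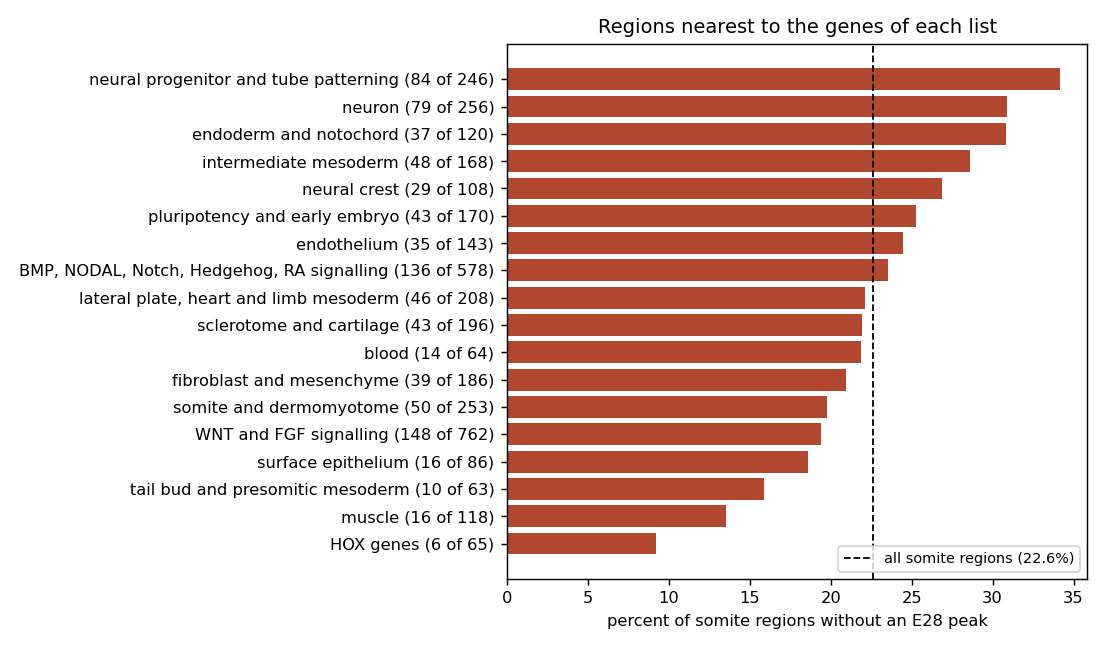
Percent of somite regions nearest to the genes of each list that had no E28 peak, with the number of such regions and of all somite regions in parentheses. The dashed line marks 22.6% over all somite regions. The neural progenitor list stands highest at 34.1% and the HOX list lowest at 9.23%.

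Within intronic and distal regions alone the share over all genes was 26.7%, and the neural progenitor list (38.9%), the neuron list (35.8%), the muscle list (15.4%) and the HOX list (13.9%) kept their order. Other lists did not: the blood list moved from below the share over all genes to above it, at 35.1%, the endothelium list from above to below it, at 25.7%, and the tail bud list came up to 26.5%. The share fell with a floor on the level: among the 64265 somite regions whose 4 peaks were each open in at least 1% of cells, it was 5.84% over all genes, 13.2% for the neural progenitor list and 13.5% for the neuron list. Nearly all called changes within the lists were falls, as in all regions without an E28 peak, of which 13.7% fell. Of the tested regions, 3 of 84 fell and 0 rose for neural progenitor genes, 8 of 79 fell and 1 rose for neuron genes, 11 of 37 fell and 0 rose for endoderm and notochord genes, and 13 of 46 fell and 0 rose for lateral plate genes. Among blood genes 5 of 14 fell, and among surface epithelium genes 5 of 16. The neuron list had the smallest fall among lists of over 10 regions, with a median log2 change of -0.26, and the surface epithelium list the largest, at -1.63. With covered length as an offset these were 0.09 and -0.33, and the largest fall was then that of the blood list, at -0.45.

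The strongest region of each list gives its levels in full. At the next 4 genes no change was called. The distal region nearest to GSX1, a homeobox gene of the dorsal neural tube, had 12.2, 12.4, 11.2 and 7.15 CPM in E18 ZZ, E18 DZ, E21 ZZ and E21 DZ. For LHX5 the values were 4.39, 6.41, 7.90 and 5.09 CPM. For WNT7A, a ligand gene, they were 13.4, 19.3, 12.2 and 8.73 CPM, and for PTCH1, the Hedgehog receptor gene, 8.28, 9.94, 9.53 and 6.42 CPM. Both E21 libraries were below both E18 libraries at GSX1 and WNT7A, and the stages overlapped at LHX5 and PTCH1. The edgeR adjusted p ran from 0.157 to 0.698.

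Another 5 regions were not called either. WNT3A is a ligand gene of the dorsal neural tube and the presomitic mesoderm, and its intronic region had 4.74, 9.57, 8.77 and 7.18 CPM. EN1, a homeobox gene of the dermomyotome and of spinal neurons, had 6.10, 9.44, 5.92 and 4.84 CPM in a distal region 334 kb from its start. At EDNRB the values were 6.86, 11.5, 5.90 and 4.28 CPM, and at NANOG, a pluripotency gene, 7.90, 11.6, 7.86 and 4.90 CPM, in an intronic region upstream of its start. The HOXB1 region had 2.71, 2.47, 2.21 and 2.51 CPM. The stages overlapped at WNT3A and HOXB1, whereas both E21 libraries were below both E18 libraries at EN1, EDNRB and NANOG. Here edgeR adjusted p ran from 0.150 to 0.895.

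The strongest regions at genes of endoderm, vessels, blood, mesenchyme and surface ectoderm fell. The distal region 292 kb from GATA6, a factor of endoderm and heart mesoderm, had 15.8 and 16.5 CPM at E18 and 5.74 and 7.60 CPM at E21 (log2 change -1.23 ± 0.21, edgeR adjusted p = 0.0236). FLT1, a VEGF receptor gene, had 17.3 and 16.6 CPM and then 5.61 and 5.83 CPM in an intronic region. RUNX1, a factor of blood formation, had 7.24 and 7.07 CPM and then 2.26 and 1.84 CPM. OSR1, of intermediate mesoderm and connective tissue, had 7.68 and 6.94 CPM and then 1.57 and 1.19 CPM at its promoter. GRHL3, of surface ectoderm, had 7.19 and 4.20 CPM and then 1.45 and 1.28 CPM. Every E18 value was above every E21 value in these 5, and all were called, with edgeR adjusted p from 0.0153 to 0.0236. With covered length as an offset the falls were smaller, with log2 changes of -0.75 at GATA6, -0.96 at FLT1, -0.98 at RUNX1, -1.23 at OSR1 and -0.86 at GRHL3, against -1.23, -1.51, -1.75, -2.36 and -1.96 without it. Cells of a cluster with raised epithelial, lateral plate and blood markers, described below, went from 40.2% (ZZ) and 29.7% (DZ) of cells at E18 to 2.95% and 2.43% at E21, and their part in these falls was not tested. The nearest gene need not name the cells that carry a region. With the somite libraries pooled, the FLT1 region had 22.6 CPM in that cluster and 7.86 CPM in endothelium-like cells. The RUNX1 region had 5.39 CPM in that cluster, 6.66 CPM in fibroblast and mesenchyme-like cells and 2.14 CPM in endothelium-like cells.

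The WT1 region lost most of its covered length. It had 11.9 and 8.59 CPM over 2554 and 2397 bp at E18, and 0.155 and 1.24 CPM over 120 and 598 bp at E21. Its log2 change was -4.22 ± 0.86 (edgeR adjusted p = 0.0333), and -1.10 with covered length as an offset. SCX, a tendon progenitor gene, had 9.85 and 8.93 CPM and then lower values in both E21 libraries, 5.57 CPM in ZZ being the higher, in a region over an annotated exon (log2 change -0.93 ± 0.22, edgeR adjusted p = 0.0467). TTN, the giant sarcomere protein gene, had 4.41 and 6.88 CPM and then 2.98 and 2.89 CPM in an exonic region that was not called (edgeR adjusted p = 0.0984).

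To see which cells carried these regions, cells were clustered on 38907 regions with a peak in all 6 libraries, none of them among the regions described here. The 5 clusters were named from windows of marker genes. Cluster 1 had raised windows for 13 of 26 neural progenitor markers, such as SOX2 and PAX6, and 14 of 27 neuron markers, such as NEUROG1 and NEUROD1, and is called neural-like. Cluster 0 raised 9 of 14 fibroblast and mesenchyme markers, cluster 3 raised 9 of 11 muscle markers and cluster 4 raised 13 of 16 endothelium markers. Cluster 2 raised epithelial (12 of 19), lateral plate (10 of 17) and blood (8 of 17) markers together and was left unnamed. Names rest on rebuilt clusters and no doublets were removed. Of 62097 different barcodes, 2294 occurred in more than 1 library.

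The neural-like cells held the largest share of their counts in somite regions without an E28 peak, in each library. The share was 8.05% in E18 ZZ, 8.56% in E18 DZ, 6.61% in E21 ZZ and 6.80% in E21 DZ. In the fibroblast and mesenchyme-like cells it was 5.84%, 5.76%, 3.07% and 2.65%, and in the muscle-like cells 6.09%, 6.17%, 2.89% and 2.57%. The unnamed cluster had 5.78%, 5.84%, 3.73% and 3.20%, and the endothelium-like cells 4.80%, 4.57%, 2.84% and 3.08%. In all 5 clusters both E21 values were below both E18 values. The rank of the neural-like cells and the lower values at E21 were shared by somite regions with a peak in 1 E28 library. Those took, for example, 4.11% of the counts of neural-like cells in E18 DZ and 3.69% in E21 DZ, against at most 3.98% and 2.79% in any other cluster. At a finer clustering the 3 neural-like subclusters again stood above the other clusters in each library, with 6.23% to 7.61% in E21 DZ against at most 3.17%.

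**Figure D5:**
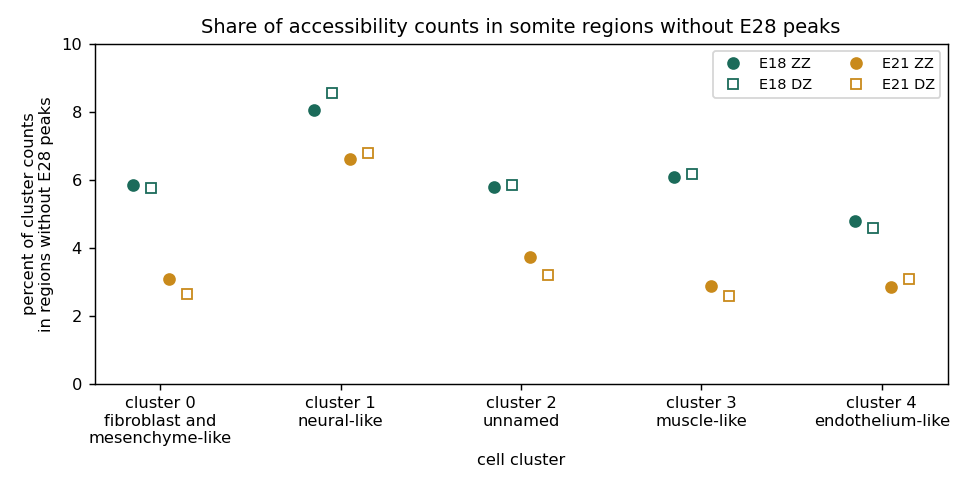
Percent of the counts of each cell cluster that fell in somite regions without an E28 peak, by cluster on the horizontal axis. Green points are E18 and orange points E21, filled circles ZZ and open squares DZ, with 1 library each. The neural-like cluster stands highest in all 4 libraries, between 6.61% and 8.56%, a rank it also had for somite regions with a peak in 1 E28 library, which are not drawn.

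Neural-like cells supplied 30.5%, 49.3%, 51.8% and 38.4% of the counts in these regions (E18 ZZ, E18 DZ, E21 ZZ and E21 DZ) and 24.0%, 39.5%, 33.3% and 19.6% of all counts of the same libraries. They were 24.6%, 38.5%, 35.5% and 21.0% of the kept cells of the somite libraries and 2.44% and 3.81% of those of the E28 libraries. The unnamed cluster held 40.2% and 29.7% of E18 cells (ZZ and DZ), held 2.95% and 2.43% of E21 cells and 1.67% and 1.48% of E28 cells. The summed windows of all 26 neural progenitor markers ran from 1109 to 1360 CPM in somites and from 972 to 1106 CPM at E28, and those of the 27 neuron markers from 1764 to 1925 CPM and from 1502 to 1554 CPM, with no marker of either list at 0 at E28. Such sums weigh large windows most, and single markers moved in both directions. EBF2, raised in cluster 0 and not in the neural-like cluster, had 154 to 248 CPM in somites and 263 and 266 CPM at E28. ELAVL4, raised in the neural-like cluster, had 67.4 to 88.8 CPM in somites and 27.2 and 23.6 CPM at E28. Whether cell makeup accounts for the missing E28 peaks was not tested. Fewer cells of a type and less opening per cell cannot be told apart in the E28 libraries, where these regions have no counts.

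Region by region, 10574 of the 26957 (39.2%) had a higher CPM in neural-like cells than in all other cells in each of the 4 somite libraries, against 24.4% of all somite regions and 19.2% of regions with a peak in all 6 libraries. A further 6518 (24.2%) were lower in neural-like cells in each library, against 36.5% of all somite regions. More than 2-fold higher in each library were 4486 (16.6%), against 6.74% of all somite regions. That share was 7.40% of somite regions with a peak in 1 E28 library and 3.22% of regions with a peak in all 6 libraries. For the 26957 regions, the median log2 ratio was 0.03 and 0.06 at E18 and 0.40 and 0.42 at E21 (ZZ and DZ). These shares describe cells and were not tested. By gene list, the regions higher in neural-like cells were 59 of 84 for neural progenitor genes (70.2%), 47 of 79 for neuron genes (59.5%), 5 of 16 for muscle genes (31.2%), 10 of 50 for somite and dermomyotome genes, 2 of 39 for fibroblast genes (5.13%) and 0 of 6 for HOX genes. The neural-like cluster was named from windows of neural progenitor and neuron markers. The shares of those lists were thus partly set by the naming and lend it no support.

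The named regions differed in the cells that carried them. Neural-like cells were compared with all other cells within each library. The other cells were mostly of clusters 0 and 2, whose shares differed between stages, so that no change by stage is read from them. The region of SORCS1 had 6.06 CPM in neural-like cells of E18 ZZ, 5.82 in E18 DZ, 20.2 in E21 ZZ and 26.4 in E21 DZ, and at most 0.466 CPM in the other cells of any library. The TTN region had 11.1, 12.3, 6.39 and 11.7 CPM in neural-like cells and at most 3.33 CPM in the others. Both were thus higher in neural-like cells in each library. The region of LOC110262021 had 2.32, 2.39, 2.65 and 2.63 CPM in neural-like cells, and 1.16, 1.34, 7.97 and 8.92 CPM in the others, without a common direction. With the somite libraries pooled, it had 8.32 CPM in cluster 0 and 2.48 CPM in neural-like cells. Cluster 0 held 24.2% (ZZ) and 19.5% (DZ) of E18 cells and 49.7% and 65.1% of E21 cells. The GATA6 region had 5.46, 5.19, 3.06 and 3.40 CPM in neural-like cells and 19.1, 23.9, 7.07 and 8.63 CPM in the others, and was lower in neural-like cells in each library. At THSD4, neural-like cells had 26.7, 25.1, 7.56 and 5.45 CPM and the others 25.7, 26.4, 9.71 and 4.12 CPM, with no common direction.

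Motifs were counted as letters only. Of 29 motifs, searched on both strands in the central 300 bases, 20 were more frequent in somite regions without an E28 peak than in regions with a peak in all 6 libraries. The SOX motif ACAANGG occurred in 20.9%, against 14.7%, and in 16.5% of all merged regions. TAATTA, its own reverse complement, occurred in 8.84% against 5.17% (6.88% of all merged regions), TGACAG in 26.3% against 20.1% (23.0%), the PBX-HOX motif TGATTNAT in 8.01% against 4.94% (7.08%), and the octamer ATGCAAAT, which is also part of the composite POU-SOX motif, in 2.28% against 1.37% (1.69%). CAGATG occurred in 30.7% against 25%, and in 27.9% of all merged regions. Somite regions with a peak in 1 E28 library lay between both sets for the SOX motif (17.3%) and TAATTA (7.33%), and had CAGATG at 31.2%. The CTCF motif, by contrast, occurred in 3.58% against 7.97% (3.98%), and GGGCGG, of KLF and SP factors, in 12.5% against 25.8% (13.9%). Among intronic and distal regions alone the CTCF share was 3.43% against 8.84% and the SOX share 21.3% against 16.3%. The GGGCGG share there was 11.1% against 15.1%, a smaller gap than with all elements.

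The regions higher in neural-like cells in all 4 libraries and those lower in all 4 carried different motifs. ACAANGG occurred in 30.0% of the 10574 higher regions and 13.5% of the 6518 lower ones, the octamer in 3.52% and 1.12%, and the RFX motif in 1.24% and 0.107%. CAGATG occurred in 27.1% of the higher and 38.1% of the lower regions, CAGGTG, an E-box of ZEB and SNAI factors, in 13.8% and 24.6%, and GGAATG, of TEAD factors, in 20.9% and 24.8%. The median log2 change between stages was -0.59 in the higher and -0.64 in the lower regions, but the breeds differed. From E18 to E21 the median of the higher regions went from 1.80 to 1.57 CPM in ZZ and from 2.34 to 1.11 CPM in DZ. That of the lower regions went from 1.74 to 1.03 CPM in ZZ and from 1.54 to 1.07 CPM in DZ. These differences were not tested.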

How the data were processed

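Single-cell ATAC-seq libraries of pig somites (E18, E21) and myotomes (E28) were used. The authors aligned reads to Sscrofa11.1 with Cell Ranger ATAC, called peaks in each library separately and deposited raw counts of cut sites per peak and barcode, without normalization, with lists of peak positions and barcodes. The submitters' processing notes also name Seurat 3.1.1 and Signac 0.2.2. The study set limits on fragments per barcode. Its numbers were applied here to cut-site counts, and its other filters were not used.

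Barcodes with 2000 to 30000 such counts inside peaks were kept (58809 of 64439). Since a fragment has 2 cut sites, limits of 4000 to 60000 were an alternative. Counts per merged region and library were tested over all somite regions in edgeR 4.0.16 (R 4.3.3; TMM, filterByExpr, quasi-likelihood test, terms for stage and breed, 1 residual degree of freedom per region, adjusted p under 0.05). The script was tested on simulated data that varied less than the real counts, which does not show how well its p-values hold here. DESeq2 1.42.0, other size factors, no filter, covered length as an offset or limited to 1.5 times, no breed term, those limits, all barcodes and the omission of each library were alternatives. The SE given with a log2 change was derived from the test, as the size of the change divided by the square root of its quasi-likelihood F statistic. CPM is counts per 1000000 kept counts of a library or cluster. A count is a sum over called peaks, so it moves with their length.

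Elements were assigned in the order exon, promoter, 5′ UTR, 3′ UTR, intron and distal, and start sites were those of protein-coding and long noncoding genes, from RefSeq (annotation release 106 of Sscrofa11.1, from the annotation's header). Sequences are RefSeq's. Cells were clustered by latent semantic analysis (50 components, scikit-learn 1.9.0) and Leiden clustering (leidenalg 0.10.2, resolution 0.3), leaving out 100 kb around marker genes. A marker window (gene body and 2 kb before it) was raised at 5 CPM or more and a log2 fold above 0.5 with a pseudocount of 2 CPM. Neural-like ratios used a pseudocount of 0.5 CPM.

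Named regions were the 8 with the highest mean CPM, the 5 largest rises and 5 largest falls among called regions with covered lengths within 1.5 times and 1 direction in both breeds, the 6 genes with the most regions (genes with LOC symbols left out), and the strongest region of each of 18 gene lists, of which GATA6 led 2. Each region was assigned to its nearest start site, which need not be its target. Other regions of the lists, the genes quoted with counts and the regions compared between cell groups were picked after their values were seen. The regions and lists were chosen with earlier results of these data known.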

Additional observations from a re-analysis of the deposited data

Results flagged for a closer look

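In 7 of the 34 named regions the level moved in opposite directions from E18 to E21 in ZZ and DZ. With 1 library per stage and breed, these differences were not tested. The log2 CPM change in ZZ minus that in DZ was 1.42 at SLC30A10, 1.18 at URM1, 1.14 at GLRA1, 1.30 at WNT3A, 1.18 at LHX5, 0.83 at PTCH1 and -0.32 at HOXB1. Apart from HOXB1, each rose in ZZ and fell in DZ, as did the share of neural-like cells, which was 24.6% and then 35.5% in ZZ and 38.5% and then 21.0% in DZ. Each of these 6 had a mean log2 ratio above 0 between neural-like and other cells, from 0.48 (PTCH1) to 3.89 (WNT3A), and HOXB1 had -0.90. The part of cell makeup in these differences was not tested. Over all 26957 somite regions without an E28 peak, 17.1% were higher at E21 in ZZ and lower in DZ and 7.85% the reverse. Regions with a peak in all 6 libraries had nearly the same shares, 17.6% and 7.59%, so this was not particular to regions without an E28 peak.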

How the results depend on the processing

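The number of somite regions without an E28 peak was 26957, and 10257 when a peak had to be open in at least 1% of the kept barcodes. It ran from 28600 to 35149 when a library was left out of the rule, each of which makes the rule looser. Between E21 and E18, 13.5% of all somite regions were called, 20.3% with DESeq2 and 20.4% of those with covered lengths within 1.5 times. Called regions without an E28 peak numbered 3944 (14.6%), 6041 with DESeq2 (22.4%) and 1359 of the fewer with such covered lengths (20.1%). They ran from 0 to 7018 when a library was left out. Leaving out E18 DZ gave 0, E18 ZZ 1162 and E21 ZZ 7018. These fits have 3 libraries and no breed term, which alone gave 4486. Between DZ and ZZ, 0 were called, against 7 with DESeq2, 7 with covered length as an offset and 1 among regions with covered lengths within 1.5 times, and 0 to 0 when a library was left out. The intronic and distal share of 86.4% became 92.5% with the centre base alone and 89.2% with protein-coding genes alone. Chosen after seeing the data, the limit of 1% of barcodes for every somite peak gave 58.6% of regions higher in neural-like cells, against 39.2%, and 24.9% of somite regions under the same limit. The breed term already pairs the libraries by breed. No pairing by replicate number was added, since each stage and breed had 1 library. Depth limits the weakest regions, where 10% of them held no more than 48 counts in E21 ZZ and 37 counts in E21 DZ.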
